A study of Mus musculus with 8 samples.

Results

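The genes described here were both muscle metallothioneins, *Mt1* and *Mt2*, and 8 genes of the antioxidant system governed by the transcription factor NRF2: its gene *Nfe2l2*, the gene of its inhibitor *Keap1*, and the targets *Hmox1*, *Nqo1*, *Gclc*, *Gclm*, *Txnrd1* and *Srxn1*. They were taken by gene symbol, and all 10 matched a single probe set each among 22206 on the array, with the same Entrez gene in the RefSeq table. RNA came from the gastrocnemius (GAS) of C57/Bl6j male mice, 4 arrays in each of 2 groups. One leg received an intramuscular adeno-associated virus (AAV) of serotype 1 in which the U6 promoter drove a short hairpin RNA against the *Mytho* transcript (group AAV sh-RNA MYTHO), while the opposite leg received the same kind of virus with a scrambled hairpin (AAV sh-RNA scrmb). Both groups were otherwise wild type, were injected at about 10 weeks of age, were sampled 3 weeks later and are labelled as 14 weeks old. U6 is active in most cell types, so the hairpin was not restricted to muscle fibres by its promoter, and the control leg carried virus too.

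Metallothioneins are small proteins rich in cysteine that bind zinc and copper, and their genes are switched on by the metal-sensing factor MTF1, by glucocorticoids and by oxidants. NRF2 is held in the cytosol by KEAP1, which presents it to a CUL3 ubiquitin ligase for degradation. Oxidants and electrophiles modify KEAP1 and spare NRF2, which then pairs with small MAF proteins on antioxidant response elements and raises genes for glutathione synthesis, thioredoxin recycling, quinone reduction and haem breakdown. BACH1 competes for the same elements, and the autophagy receptor p62, encoded by *Sqstm1*, can sequester KEAP1. In skeletal muscle these genes are read as markers of oxidative, metal and glucocorticoid stress, and the study measured both metallothioneins by RT-qPCR at a later time point.

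*Mt1*, *Mt2*, *Hmox1* and *Nqo1* all lie on chromosome 8, as does the targeted gene, D230025D16Rik (105225146 to 105253053). In GRCm38.p6, the assembly also called mm10, *Mt2* (94172618 to 94173567) and *Mt1* (94178883 to 94180327) are neighbours, *Hmox1* lies at 75093618 to 75100593 and *Nqo1* at 107388225 to 107403205. *Gclc* (77754535 to 77794489) and *Keap1* (21229730 to 21239332) are on chromosome 9, *Srxn1* (152105524 to 152111376) and *Nfe2l2* (75675513 to 75704663) on chromosome 2, *Gclm* (122245487 to 122267215) on chromosome 3 and *Txnrd1* (82833951 to 82897724) on chromosome 10. All are protein-coding. The RefSeq promoter table held 10 windows for 8 of these genes, each running from 250 bases before to 50 after a start, and none was listed for *Hmox1* or *Gclc*. These windows were searched on both strands for the core of the antioxidant response element, TGACNNNGC, and for the core of the metal response element bound by MTF1, written as TGCACNC or TGCGCNC. An antioxidant core was found in windows of *Mt2*, *Gclm*, *Txnrd1*, *Srxn1* and *Nfe2l2*, and 12.4% of all 32851 windows held one. A metal core was found in *Mt1*, *Mt2*, *Gclm* and *Srxn1*, against 25.7% of all windows. The window of *Mt2* held 4 metal cores, at positions -223, -128, -50 and 5 relative to the start, a number that 0.517% of windows reached. Its antioxidant core was at -79. The *Mt1* window held 3 metal cores and no antioxidant core, and the *Keap1* and *Nqo1* windows held neither. Bases outside the windows were not searched, so a window without a core does not show that the gene lacks one. The sequences below are shown because the metallothionein pair varied most between arrays and the *Mt2* window held both kinds of core. *Nfe2l2* is shown because it encodes the factor that binds antioxidant elements. Capitals mark the matches, which are a description of letters and not of bound sites. *Mt1* is given only as 30 bases around its match upstream of the window's start (plus strand, chr8:94179054-94179083), since RefSeq also places the gene's first base further upstream, *Mt2* as the 250 bases before its start (plus strand, chr8:94172368-94172617) and *Nfe2l2* likewise (minus strand, chr2:75704664-75704913).
Mt1: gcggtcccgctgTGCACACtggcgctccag
Mt2: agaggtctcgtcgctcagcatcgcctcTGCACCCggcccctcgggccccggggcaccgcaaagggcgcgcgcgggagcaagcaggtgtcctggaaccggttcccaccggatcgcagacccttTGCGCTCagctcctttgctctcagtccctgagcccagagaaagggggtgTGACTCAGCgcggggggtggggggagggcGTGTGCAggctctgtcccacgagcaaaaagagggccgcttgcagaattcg
Nfe2l2: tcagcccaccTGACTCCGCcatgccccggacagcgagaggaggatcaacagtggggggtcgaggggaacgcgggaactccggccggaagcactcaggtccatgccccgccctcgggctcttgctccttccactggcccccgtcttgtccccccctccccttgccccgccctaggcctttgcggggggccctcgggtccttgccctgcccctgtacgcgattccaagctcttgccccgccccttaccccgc

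The values are log2 signals, in which a difference of 1 is a doubling of probe brightness. Array medians ran from 6.39 to 6.47, and any pair of arrays correlated at 0.972 to 0.988 over probe sets, which are not independent of one another. The 2 legs of an animal share a number in the column names, and letters A to D stand for these animals. The hairpin target, D230025D16Rik, read 11.35, 11.31, 10.78 and 11.05 in the scrmb legs of A to D. Their MYTHO legs read 8.16, 8.20, 8.80 and 8.08, a log2 fold change of -2.81 (limma adjusted p 0.00044). The myofibre markers *Acta1* and *Pygm* were saturated on all 8 arrays and carry no difference. The 8 slow-fibre genes set apart 1 array in each group: their mean log2 signal was 13.7 in scrmb A against 11.61 to 11.94 in the other scrmb arrays, and 11.68 in MYTHO D against 14.43 to 14.88 in the other MYTHO arrays. Results without these 2 arrays are also given for each of the 10 genes that moved by over 1.5 times, and for *Mt1* and *Keap1*. In whole muscle, fewer cells of a type and less RNA per cell cannot be told apart.

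None of the 10 genes passed a limma adjusted p under 0.05, a threshold that 0.027% of all probe sets passed, 0.00901% as higher and 0.018% as lower. Under the animal block none passed it either, as for all but 0.00901% of probe sets. At an unadjusted p under 0.05 limma counted 1, *Keap1*, which was lower in MYTHO muscle. Of all probe sets, 12.4% passed that threshold, 7.58% as lower, so 1 in 10 is no more than the table as a whole gave. None of the 10 met the threshold of the study, which also asks for a 2-fold change and which 1.51% of probe sets met. The log2 fold change was above 0 for 8 genes and below 0 for *Keap1* and *Txnrd1*. Its median over the 10 was 0.42, beside -0.005 over all probe sets. Both metallothioneins, *Hmox1*, *Nqo1*, *Gclc* and *Srxn1*, lay between 0.40 and 0.54, while *Gclm*, *Txnrd1* and *Nfe2l2* lay between -0.08 and 0.11.

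**Figure D1:**
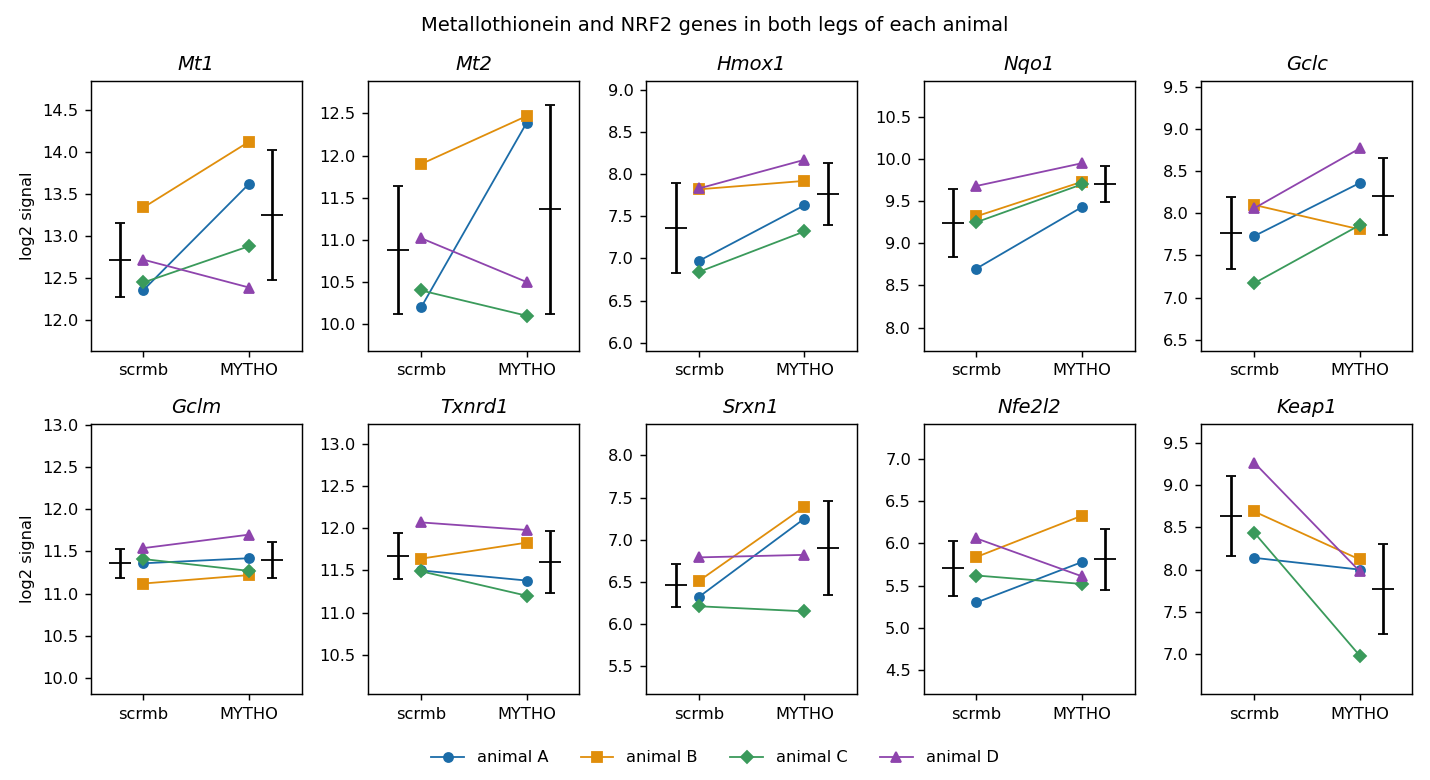
Log2 signal of each of the 10 genes (vertical axes, all spanning the same range) in the scrmb and the MYTHO leg of animals A to D, joined by a line per animal; black bars are the mean and SD of 4 arrays. *Nqo1* and *Hmox1* slope up and *Keap1* slopes down in every animal, while the lines of *Mt1* and *Mt2* cross.

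The metallothioneins were the most variable of the 10. *Mt1* read 12.36, 13.34, 12.45 and 12.72 in scrmb A to D and 13.62, 14.12, 12.88 and 12.39 in MYTHO A to D. The MYTHO legs of A and B were the highest of the 8 arrays, but the lowest MYTHO value lay within the scrmb range, so the groups overlapped. The scrmb arrays averaged 12.72 ± 0.44 and the MYTHO arrays 13.25 ± 0.77 (SD, n = 4 each). Their difference on the log2 scale was 0.54, with a 95% interval from -0.23 to 1.30 (limma p 0.153, adjusted p 0.578). *Mt1* was higher in the MYTHO leg of 3 of 4 animals, by 1.26 in A, 0.78 in B and 0.43 in C, and lower in D, by -0.33. Leaving out MYTHO D raised the log2 fold change to 0.82 with an unadjusted limma p of 0.0272 (adjusted 0.352), and leaving out MYTHO B lowered it to 0.25. Without both arrays apart in slow-fibre genes it was 0.70 (limma p 0.0688).

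*Mt2* read 10.20, 11.90, 10.40 and 11.02 in scrmb A to D and 12.39, 12.47, 10.10 and 10.50 in MYTHO A to D. The MYTHO legs therefore held both the 2 highest values and the lowest value of the series. The scrmb arrays averaged 10.88 ± 0.76 and the MYTHO arrays 11.37 ± 1.24 (SD, n = 4 each). Their difference on the log2 scale was 0.49, with a 95% interval from -0.69 to 1.66 (limma p 0.387, adjusted p 0.772). The difference between legs was 2.19 in A and 0.57 in B, against -0.30 in C and -0.52 in D. Without MYTHO A the log2 fold change was 0.14, without MYTHO B 0.12, without scrmb A 0.26, without MYTHO C 0.91, without MYTHO D 0.77 and without scrmb B 0.83, none with an unadjusted limma p under 0.05. The pooled SD within groups was 1.03 for *Mt2* and 0.63 for *Mt1*, and only 0.293% and 3.01% of probe sets had one as large. The median pooled SD was 0.316.

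Both metallothioneins put the same 3 arrays on top, in the order MYTHO B, MYTHO A and scrmb B. Likeness to every probe set with a single symbol was measured as the root mean square difference of log2 signals over the 8 arrays, after subtracting each probe set's own mean. *Mt1* was nearest to *Rabep2* at 0.185, *Ppp1r18* at 0.196 and *Sik1*, a salt-inducible kinase, at 0.224. *Mt2* was nearest to *Zfp36*, whose protein speeds the decay of AU-rich messenger RNAs, at 0.438, to *Mustn1*, a small nuclear protein of the musculoskeletal system, at 0.439, and then to its neighbour *Mt1* at 0.450. These distances compare with SDs over the 8 arrays of 0.65 for *Mt1* and 0.99 for *Mt2*, so the match was looser for *Mt2*. None of these had an unadjusted limma p under 0.05.

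**Figure D2:**
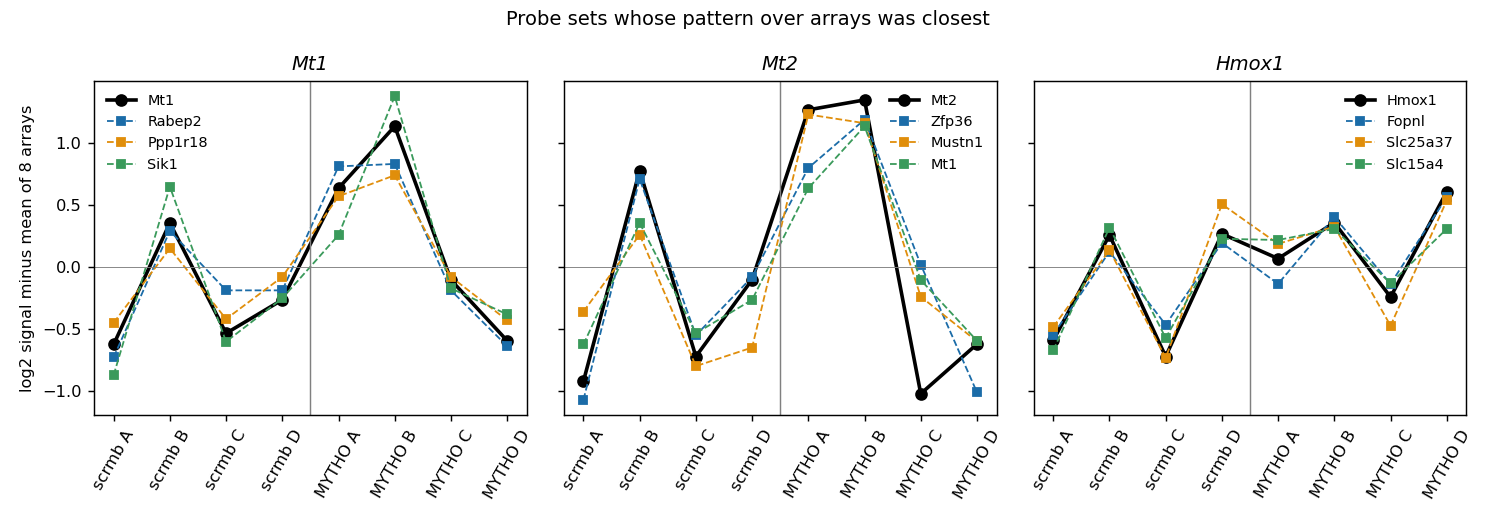
Log2 signal minus the mean of the 8 arrays (vertical axis) for *Mt1*, *Mt2* and *Hmox1* (black) and the 3 probe sets closest to each (dashed), by array; arrays have no order and the lines only guide the eye. MYTHO A, MYTHO B and scrmb B stand high for *Mt1* and *Mt2*, while *Hmox1* peaks in MYTHO D.

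*Mtf1*, the metal sensor that drives both genes, had a log2 fold change of 0.31 (limma p 0.121), and *Slc30a1*, the zinc exporter that MTF1 also induces, 0.18 (limma p 0.327). Of 27 genes for zinc transporters and metallothionein regulation, none had an unadjusted limma p under 0.05 as higher and 2 did as lower, where 4.81% and 7.58% of all probe sets did. These were *Slc30a9*, at -0.45 (limma p 0.0171, adjusted p 0.291), and the zinc importer gene *Slc39a2*, at -0.74 (limma p 0.0261, adjusted p 0.331). Signals of *Slc39a2* lay under the array median on all 8 arrays. *Slc30a9* was without overlap between groups, as 3.87% of all probe sets were in that direction. With animal as a block *Slc39a2* had a limma p of 0.0512, and the zinc exporter gene *Slc30a2*, at 0.43, one of 0.0428. Under that fit 4.94% of all probe sets passed as higher and 7.66% as lower. The list median was -0.02. Among 15 genes induced by glucocorticoids in muscle, 1 was higher at that threshold, *Ddit4*, an inhibitor of mTORC1 signalling, at 0.50 (limma p 0.0402, adjusted p 0.378), although its signals lay under the array median on all 8 arrays and its limma p was 0.0564 with animal as a block. The log2 fold change was above 0 for 12 of the 15, with a list median of 0.11. No gene of either list passed a limma adjusted p under 0.05.

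*Nqo1*, which encodes a quinone reductase and is widely used as a readout of NRF2, read 8.70, 9.32, 9.25 and 9.68 in scrmb A to D and 9.43, 9.73, 9.70 and 9.95 in MYTHO A to D. All MYTHO values but that of A lay above the highest scrmb value, that of D, so the groups overlapped by 1 array. The scrmb arrays averaged 9.24 ± 0.40 and the MYTHO arrays 9.70 ± 0.21 (SD, n = 4 each). Their difference on the log2 scale was 0.47, with a 95% interval from -0.02 to 0.95 (limma p 0.0594, adjusted p 0.427). An exact two-sided permutation test over the 70 relabellings gave p = 0.0571. The MYTHO leg was higher in 4 of 4 animals, by 0.73, 0.41, 0.45 and 0.27 in A to D, as it was for 8.94% of all probe sets. With animal as a block, the unadjusted limma p was 0.0307 and the adjusted p 0.340, which raised the count past the unadjusted threshold from 1 to 2 of the 10 genes, where 12.6% of all probe sets passed under that fit, 4.94% as higher and 7.66% as lower. With the correlation between legs of an animal estimated instead, the limma p of *Nqo1* was 0.0507 and the count stayed at 1, *Keap1*. Without scrmb D the log2 fold change was 0.61 (limma p 0.0184, adjusted p 0.236), and without MYTHO A it was 0.56 (limma p 0.0427, adjusted p 0.414). The estimate shrank to 0.29 without scrmb A (limma p 0.191) and to 0.20 without both arrays that stood apart in slow-fibre genes (limma p 0.374).

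*Hmox1*, the inducible enzyme that opens the haem ring, read 6.97, 7.82, 6.84 and 7.83 in scrmb A to D and 7.63, 7.92, 7.32 and 8.17 in MYTHO A to D. It too was higher in the MYTHO leg of all 4 animals, by 0.66, 0.10, 0.48 and 0.34, but the differences between animals were as large and the groups overlapped. The scrmb arrays averaged 7.37 ± 0.53 and the MYTHO arrays 7.76 ± 0.37 (SD, n = 4 each). Their difference on the log2 scale was 0.40, with a 95% interval from -0.21 to 1.00 (limma p 0.179, adjusted p 0.609). Without the 2 arrays apart in slow-fibre genes it was 0.13, without scrmb C 0.22, without MYTHO D 0.26 and without scrmb A 0.26. The probe sets with the nearest pattern were *Fopnl* at 0.136, the mitochondrial iron importer *Slc25a37* at 0.140 and *Slc15a4* at 0.142, against an SD of 0.47 for *Hmox1*. Its constitutive relative *Hmox2* differed by 0.08 (limma p 0.666).

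Macrophages that clear haem are rich in *Hmox1*, and none of 8 macrophage markers had an unadjusted limma p under 0.05. Under the animal block there was 1, *Cd68*, at 0.54 (limma p 0.0332). Of all probe sets, 12.4% passed without the block and 12.6% with it. The mean log2 signal of the 8 markers ran from 7.04 to 7.35 in scrmb and from 7.05 to 7.31 in MYTHO, their summed signal on the log2 scale from 11.12 to 11.65 and from 10.96 to 11.53, and *Cd14* and *Itgam* lay under the array median on every array. Red cell markers, with probe sets shared between globin genes, had a summed log2 signal of 15.16 to 17.53 in scrmb and 16.10 to 18.80 in MYTHO, with the highest mean, 14.76, in MYTHO D, where *Hmox1* was also highest. The next highest red cell mean, 13.7, was in scrmb A, where *Hmox1* read 6.97, lower than on all arrays but scrmb C. Their part in the *Hmox1* values was not tested.

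*Gclc* and *Gclm* encode the catalytic and the modifier subunit of glutamate-cysteine ligase, the enzyme that limits glutathione synthesis. *Gclc* read 7.73, 8.10, 7.17 and 8.06 in scrmb A to D and 8.36, 7.81, 7.86 and 8.77 in MYTHO A to D. The MYTHO leg was higher by 0.63, 0.69 and 0.71 in A, C and D and lower in B, with a difference of -0.29. Its log2 fold change was 0.44 with a 95% interval from -0.15 to 1.02 (limma p 0.133, adjusted p 0.553), and it was 0.24 without scrmb C, 0.25 without MYTHO D and 0.23 without both arrays apart in slow-fibre genes. *Gclm* stayed between 11.12 and 11.54 in scrmb and between 11.22 and 11.70 in MYTHO, and these ranges overlap. Its log2 fold change of 0.05 had a 95% interval from -0.35 to 0.44 (limma p 0.809), which leaves room for changes well under 2-fold in either direction. Without both arrays apart in slow-fibre genes its sign turned, to -0.05 (limma p 0.805).

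*Txnrd1* encodes the cytosolic thioredoxin reductase and *Srxn1* encodes sulfiredoxin, which repairs hyperoxidised peroxiredoxins. *Txnrd1* ran from 11.49 to 12.07 in scrmb and from 11.20 to 11.98 in MYTHO, and its log2 fold change of -0.08 had a 95% interval from -0.56 to 0.41 (limma p 0.734). It was -0.26 without both arrays apart in slow-fibre genes (limma p 0.321). *Srxn1* read 6.32, 6.51, 6.21 and 6.79 in scrmb A to D and 7.25, 7.39, 6.15 and 6.82 in MYTHO A to D. As with the metallothioneins, the MYTHO legs of A and B were the highest arrays, with differences between legs of 0.93 and 0.88, while C and D differed by -0.06 and 0.03. The log2 fold change was 0.45 with a 95% interval from -0.13 to 1.02 (limma p 0.120, adjusted p 0.536). Leaving out MYTHO C raised it to 0.70 with an unadjusted limma p of 0.00958 (adjusted 0.320), and leaving out MYTHO B lowered it to 0.28. Signals of *Srxn1* were under the array median on 3 of 8 arrays, and the table holds no detection call.

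*Nfe2l2* itself was dim. It ran from 5.30 to 6.06 in scrmb and from 5.52 to 6.33 in MYTHO, under the array median on all 8 arrays, which limits what its probe set can show. The log2 fold change was 0.11 with a 95% interval from -0.40 to 0.61 (limma p 0.657), and 0.04 without both arrays apart in slow-fibre genes. Legs differed by 0.48 and 0.49 in A and B and by -0.10 and -0.45 in C and D.

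*Keap1* was the gene of the 10 with the largest absolute log2 fold change. It read 8.14, 8.69, 8.44 and 9.27 in scrmb A to D and 8.0, 8.12, 6.98 and 7.98 in MYTHO A to D. Every MYTHO value lay under every scrmb value, though barely so for MYTHO B against scrmb A, and *Keap1* was the 1 gene of the 10 without overlap, as 6.46% of all probe sets were, 2.59% as higher and 3.87% as lower. The scrmb arrays averaged 8.63 ± 0.48 and the MYTHO arrays 7.77 ± 0.53 (SD, n = 4 each). Their difference on the log2 scale was -0.87, with a 95% interval from -1.51 to -0.22, which leaves 54.9% of the scrmb signal. The unadjusted limma p was 0.0130 and the adjusted p 0.267, so *Keap1* did not pass over all probe sets, and 2.07% of them had a log2 fold change as low. Over the 70 relabellings the exact permutation test, two-sided, returned 0.0286, the smallest p that 4 against 4 arrays allow. It was lower in the MYTHO leg of 4 of 4 animals, as were 10.8% of probe sets, by differences of -0.14, -0.57, -1.46 and -1.29 in A to D. With animal as a block the limma p was 0.00700 and the adjusted p 0.224. After median centring of the arrays the groups overlapped, so the exact test no longer gave its smallest value, while limma still gave -0.83 with p 0.0147. MYTHO C, the lowest array at 6.98, had the highest remaining D230025D16Rik signal of its group, and without it the *Keap1* log2 fold change was -0.60 (limma p 0.0409). Without both arrays apart in slow-fibre genes it was -1.10 (limma p 0.00911, adjusted p 0.300), past 2-fold.

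**Figure D3:**
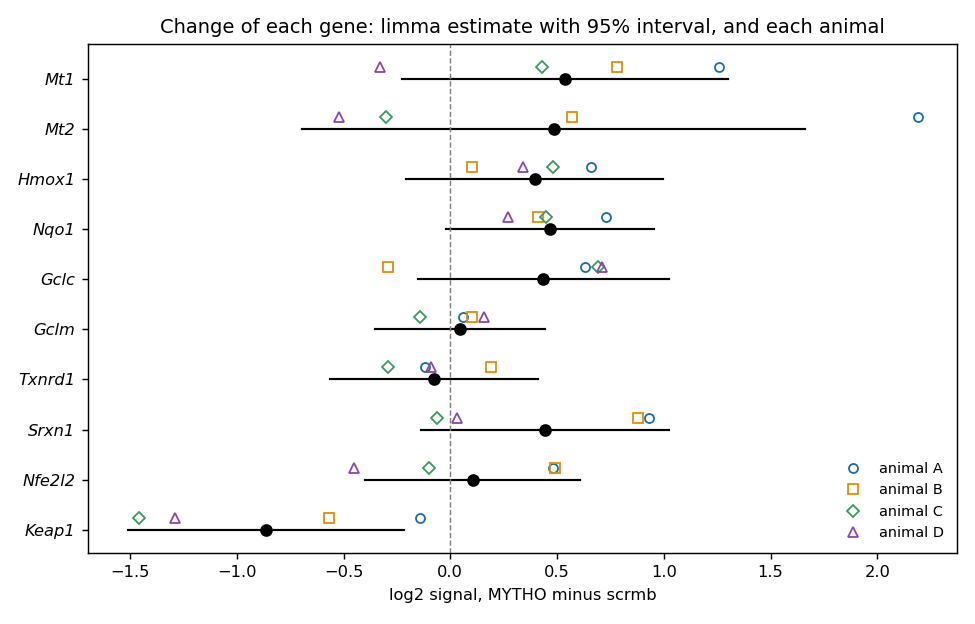
Difference in log2 signal, MYTHO minus scrmb (horizontal axis), for each of the 10 genes: filled circles and lines are the limma estimate and its 95% interval without a block, and open symbols are the differences between legs of animals A to D. The interval of *Keap1* lies below 0, from -1.51 to -0.22, and those of the other 9 genes include 0.

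The differences between legs were not alike in the 4 animals. In A and in B, 8 of the 10 genes were higher in the MYTHO leg, with median differences of 0.65 and 0.30. In C, 4 were higher and in D 5, with medians of -0.08 and -0.03. Over all probe sets the share that was higher ran only from 47.0% to 50.5% between animals. *Mt1*, *Mt2*, *Srxn1* and *Nfe2l2* each differed more in A and in B than in C or in D, whereas the *Keap1* difference was closer to 0 in A and B than in C and D. The other 5 genes, *Hmox1*, *Nqo1*, *Gclc*, *Gclm* and *Txnrd1*, did not split the animals in this way. These genes were set beside each other after their values were seen, so the contrast of A and B with C and D was not tested.

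Of 14 regulators and partners of NRF2, none had an unadjusted limma p under 0.05, where 12.4% of all probe sets did. The list median was -0.001. With animal as a block there was 1, the small MAF gene *Mafk* at 0.42 (limma p 0.0669 without the block and 0.0486 with it), which lay under the array median on all 8 arrays. Of all probe sets, 12.6% passed under that fit, 4.94% as higher. *Bach1*, the repressor, had a log2 fold change of -0.20 (limma p 0.294), the MAF partner *Mafg* -0.13 (limma p 0.614), the ligase scaffold *Cul3* -0.26 (limma p 0.163) and *Sqstm1*, the gene of p62, -0.06 (limma p 0.786). Among 30 further NRF2 targets, 2 were higher and none lower at that threshold, 22 had a log2 fold change above 0, and the median was 0.10. *Pgd*, an enzyme of the pentose phosphate pathway that yields NADPH, had a log2 fold change of 0.56 (limma p 0.0188, adjusted p 0.302), and the glutathione transferase gene *Gstm2*, one of a family of similar copies, 0.50 (limma p 0.0413, adjusted p 0.380). *Txn1* at 0.28, *Gsr* at -0.22, *Prdx1* at -0.24 and *G6pdx* at -0.22 had limma p from 0.155 to 0.357. The 2 higher genes are 2 of 30, beside 4.81% of all probe sets, and none was lower, beside 7.58%. With animal as a block *Gstm2* had a limma p of 0.0511, which left 1 of 30 as higher, beside 4.94% of all probe sets.

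In the wider glutathione, thioredoxin and haem list, 3 of 28 genes were higher at an unadjusted limma p under 0.05 and none lower, beside 4.81% and 7.58% of all probe sets. *Txn2*, the mitochondrial thioredoxin, averaged 11.46 ± 0.22 in scrmb and 12.25 ± 0.35 in MYTHO (SD, n = 4 each), which differ by 0.79 on the log2 scale (limma p 0.00293, adjusted p 0.168). *Ggt1*, which breaks down extracellular glutathione, differed by 0.59 (limma p 0.0173, adjusted p 0.292) with signals under the array median on all 8 arrays, and *Prdx2*, a cytosolic peroxiredoxin, by 0.48 (limma p 0.0278, adjusted p 0.336). All 3 were higher in 4 of 4 animals, as 8.94% of all probe sets were, and did not overlap between groups, as 2.59% did in that direction. Another gene of the list, the peroxiredoxin gene *Prdx4*, did not overlap either but lay lower in MYTHO, at -0.33 (limma p 0.0723). Of all probe sets, 3.87% did not overlap in that direction. Another gene was higher with animal as a block, *Chac1*, whose product degrades glutathione (limma p 0.0449). That made 4 of 28 as higher under that fit, beside 4.94% of all probe sets. Of 12 genes that remove or produce superoxide and peroxide, 2 were higher and 1 lower, beside the same shares of all probe sets. With animal as a block 4 were higher and 1 lower, the additions being the uncoupling protein genes *Ucp2* (limma p 0.0294) and *Ucp3* (limma p 0.0203), beside 4.94% and 7.66% of all probe sets. Catalase (*Cat*) differed by 0.51 (limma p 0.0203, adjusted p 0.307) and the oxidase gene *Nox4*, under the array median on 7 of 8 arrays, by 0.50 (limma p 0.0427, adjusted p 0.385), while the copper chaperone gene *Atox1* differed by -0.55 (limma p 0.0182, adjusted p 0.297). No gene of these 4 lists passed a limma adjusted p under 0.05.

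**Figure D4:**
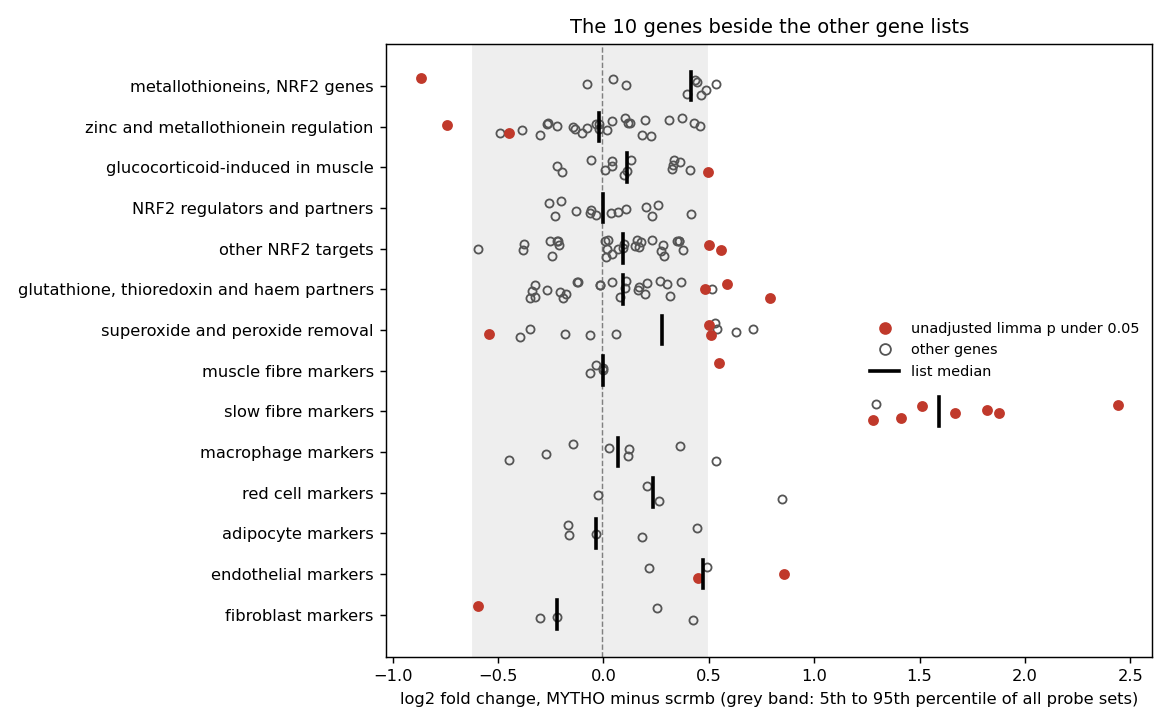
Log2 fold change, MYTHO minus scrmb (horizontal axis), of the 10 genes and of the genes of 13 other lists; filled circles have an unadjusted limma p under 0.05, black bars are list medians and the grey band spans the 5th to the 95th percentile of all probe sets, -0.62 to 0.49. *Keap1* lies left of the band, *Mt1* at 0.54 lies just to its right, and the slow-fibre genes lie far to its right.

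Markers of several cell types of whole muscle differed between arrays. All 8 slow-fibre genes had a log2 fold change above 0, from 1.28 for *Myl3* to 2.44 for *Tnni1*, and 7 had an unadjusted limma p under 0.05, beside 4.81% of all probe sets as higher. *Tnnc1* differed by 1.88 and *Myh7*, the slow myosin heavy chain gene, by 1.82. With animal as a block all 8 passed that threshold, beside 4.94% of all probe sets as higher. Of the 5 muscle fibre markers 1 passed it, *Mb*, the myoglobin gene, at 0.55 (limma p 0.0245, adjusted p 0.326). The summed log2 signal of the slow-fibre genes ran from 15.47 to 17.62 in scrmb and from 15.74 to 18.71 in MYTHO. Of 4 endothelial markers, *Tek* (0.86, limma p 0.00606) and *Pecam1* (0.45, limma p 0.0369) were higher at that threshold, and the summed log2 signal ran from 13.28 to 13.65 in scrmb and from 13.83 to 13.96 in MYTHO. Adipocyte markers, 5 in all and none past that threshold, had their highest mean, 11.05, in MYTHO A and their lowest, 7.05, in scrmb D, with summed log2 signals of 14.36 to 15.49 in scrmb and 14.75 to 16.09 in MYTHO. The summed log2 signal of the fibroblast markers ran from 17.65 to 18.08 in scrmb and from 17.04 to 17.64 in MYTHO. Their mean log2 signal overlapped, from 10.78 to 10.96 in scrmb and from 10.54 to 11.18 in MYTHO. Of the 5, 2 had a log2 fold change above 0 and 3 below. Only *Dcn* was lower at that threshold, at -0.60 (limma p 0.00850), beside 7.58% of all probe sets as lower. Without the block, the adjusted p of each of these genes was above 0.2, and the part of these cell types in the values of the 10 genes was not tested.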

How the data were processed

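The authors hybridised 8 RNA samples to Clariom S Mouse arrays and deposited log2 signals per gene-level probe set, computed with Transcriptome Analysis Console version 4.0.1 at default settings. The summary method, per the file headers, was SST-RMA, which corrects background, normalizes by quantile and combines probes, and the annotation was release 36 on mm10. Their group averages, fold changes and p-values, also in the table, were not used. Values carry 2 decimals, the lowest is 2.38 and the scale ends at 19.93. Quantile normalization removes global shifts between arrays, and the number of arrays limits the precision. Columns gave the group and an animal number but not the replicate of the labels.

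The groups were tested by limma (version 3.58.1, run in R 4.3.3; lmFit, eBayes, MYTHO minus scrmb, no block, two-sided), as the study's account of its array test names no pairing term, with Benjamini-Hochberg adjustment over 22206 probe sets. The scripts were tested on simulated data. Pairing comes from the legs of one animal: same-animal deviations from group means correlated at 0.003, -0.001, 0.135 and 0.087. Deviations of legs from different animals correlated at -0.167 to 0.104. Named were the 10 genes, the hairpin target, 11 genes chosen by role, up to 3 genes per list with the largest change at an unadjusted p under 0.05, and the 3 nearest patterns. *Acta1*, *Pygm*, *Cd14*, *Itgam*, *Myl3*, *Slc30a2*, *Mafk*, *Chac1*, *Prdx4*, *Ucp2*, *Ucp3* and *Cd68* were named after their values were seen. The members and lists were chosen with earlier results of these data known. Probe sequences were not used, so cross-hybridisation was not examined.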

Additional observations from a re-analysis of the deposited data

Results flagged for a closer look

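In 50 groups of 4 arrays, covering the 10 genes, the hairpin target and the list means, 5 held an array that stood further from its neighbour than Dixon's test allows at the 95% level, and chance alone gives about 1 in 20. *Keap1* in MYTHO C read 6.98 against 7.98 to 8.12 in the other MYTHO arrays. The hairpin target D230025D16Rik read 8.80 in the same array against 8.08 to 8.20. The muscle fibre markers averaged 19.25 there against 19.19 to 19.20, close to the ceiling of the scale. Slow-fibre markers averaged 13.70 in scrmb A against 11.61 to 11.94, and 11.68 in MYTHO D against 14.43 to 14.88.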

How the results depend on the processing

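No alternative gave any of the 10 genes a limma adjusted p under 0.05, and the hairpin target kept its call under all 19, from -2.98 to -2.74 without single arrays. *Keap1* had an unadjusted p under 0.05 in all 19, from -1.03 to -0.60 without single arrays. The count of genes past the unadjusted threshold was 1, and 2 with the replicate block by animal, with the robust eBayes trend or when medians were centred (*Nqo1* added each time), but 1 with the correlation within animals estimated (*Nqo1* p 0.0507), and 1 to 2 without single arrays. The count past the study threshold was 0, but 1 with a fold minimum of 1.5 or without the 2 arrays apart in slow-fibre genes, and 0 to 1 without single arrays (*Keap1*, without scrmb A). The exact test reached its threshold for 1 gene, for 0 after median centring or without those 2 arrays, where so few arrays cannot reach it, and for 0 to 1 without single arrays. Signs reversed only near 0: *Gclm* ran from -0.0542 to 0.106, *Txnrd1* from -0.205 to 0.055 and *Nfe2l2* from -0.0683 to 0.223 without single arrays, and *Gclm* was -0.0533 without those 2 arrays. The causes were not tested. Of 189 values of the 10 genes, 182 kept their direction and their side of the adjusted threshold, as did 87 of 87 for 29 other named genes. The block changed no call at the adjusted threshold among the genes named here; the calls it ended or added at the unadjusted one stand beside their lists. Leaving out those 2 arrays, the exact test under other settings and the scaling of other named genes were chosen after the data were seen. Averaging several rows per gene was not run, as each of the 10 has 1, and *Nfe2l2* is not in the upper 50% of probe sets. Dim probe sets and the ceiling limit what small changes can be seen.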
